A study of Homo sapiens with 27 samples.

Results

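Interferon-stimulated genes are the genes that cells switch on after interferon binds its receptor, and 39 of them, chosen by symbol, were followed here through cells depleted of the nuclear pore protein TPR. Their symbols were matched to Ensembl gene IDs in a table of 34464 genes. All 39 had a row, and 31 had a mean above 1 FPKM over all libraries, among 14611 genes that passed this minimum outside the mitochondrial genome. FPKM, which are fragments scaled to transcript length and to the size of the library, allow for the length of a transcript, so levels of different genes can be set side by side.

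The study asked which RNAs need TPR, a protein of the nuclear basket, to leave the nucleus. U2OS cells, a human osteosarcoma line, carried for 5 days a control shRNA or either of 2 shRNAs against TPR, named TPR A and TPR D, delivered by lentivirus. The labels name no interferon treatment. There were 3 replicates per shRNA, each with a total, a nuclear and a cytoplasmic/ER library of poly(A)+ RNA, or 27 libraries in 9 groups of 3. The study's methods call the replicates biological. All cells came from 1 line, and the labels do not say how far the replicates were grown apart. The p-values therefore measure only the spread between these samples, which may be in part technical.

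In the textbook pathway, type I interferon binds the receptor chains IFNAR1 and IFNAR2, the kinases JAK1 and TYK2 phosphorylate STAT2, and STAT2 joins IRF9 in the factor ISGF3. ISGF3 binds the interferon-stimulated response element, a pair of GAAA repeats near the start of its target genes. The products act against viruses in different ways: IFIT proteins bind viral RNA, OAS enzymes make a messenger that activates RNase L, IFIH1 and RIGI sense double-stranded RNA, IFITM proteins hinder membrane fusion, and ISG15 is a ubiquitin-like modifier that USP18 removes.

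The response element was looked for as the letters GAAANNGAAA on both strands, with N for any base and overlapping matches allowed, in the 250 bases before each start site in RefSeq (GRCh38.p14). Windows were held for 31 of the 39 genes, of which 21 (67.7%) contained the letters, compared with 1014 of 27305 genes with a window (3.71%). IRF9, STAT2, IRF1, RIGI, OAS1, HERC6, IFI35, DTX3L, CMPK2 and XAF1 had no match in theirs. The 40-base stretches printed here show the element in 6 genes whose values are described further on. They are written 5′ to 3′ on the strand of the gene, the bases of matches are in capitals, and TTTCNNTTTC is the same element on the other strand.
ISG15 (chr1:1013375-1013414, plus strand): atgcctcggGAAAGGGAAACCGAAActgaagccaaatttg
IFIT1 (chr10:89392505-89392544, plus strand): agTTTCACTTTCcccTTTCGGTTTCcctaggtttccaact
BST2 (chr19:17405730-17405769, minus strand): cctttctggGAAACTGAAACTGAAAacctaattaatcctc
IFI27 (chr14:94110626-94110665, plus strand): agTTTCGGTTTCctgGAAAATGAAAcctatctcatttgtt
DDX60 (chr4:168318781-168318820, minus strand): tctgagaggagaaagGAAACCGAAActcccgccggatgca
IFIH1 (chr2:162318685-162318724, minus strand): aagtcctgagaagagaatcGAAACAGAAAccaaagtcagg
ISG15 and BST2 held 3 GAAA repeats in a row, which makes 2 overlapping matches, while IFIH1 showed 1 match in the stretch. A match is a description of the sequence and does not show that a factor was bound in these cells.

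The libraries were checked first. TPR mRNA in the total fraction was 28.2, 25.7 and 25.3 FPKM with the control shRNA, 4.36, 3.44 and 4.7 with TPR A and 3.23, 4.74 and 6.01 with TPR D, for replicates 1, 2 and 3. All depleted replicates lay below all controls, with a log2 change of -2.51 for both shRNAs together (standard error 0.31, limma adjusted p = 0.000364; exact permutation p = 0.0238, 2-sided and the smallest that 6 against 3 replicates allow). The mesenchymal genes VIM, COL1A1, SPARC, RUNX2 and LGALS1 were above the minimum and COL1A2 was not, with a mean of 0.264 FPKM. The leukocyte genes PTPRC, CD14, CD3E and HLA-DRA had means of 0.00531 to 0.728 FPKM, and CD68, which other cells also make, had 10 FPKM. A level of 1 FPKM on 1 kb of transcript stood for 32.5 to 89.9 reads, the fewest in the cytoplasmic/ER fraction (32.5 to 48.9). Of the 27 libraries, 25 were closest in profile to their own fraction. The libraries labelled control replicate 2 total and control replicate 2 nuclear were not: the former was closest to the nuclear and the latter to the total fraction, and mitochondrial transcripts made up 0.738% and 21.8% of their FPKM, compared with 15.8% to 24.7% in the other total and 0.774% to 2.42% in the other nuclear libraries. Both are kept under their labels here, and several results are given also without replicate 2 of the control or without these 2 libraries. The remaining results are given only with them and may depend on them.

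The levels of the 39 genes covered a wide range. In control total RNA IFITM3 was highest with 220, 382 and 232 FPKM, and IFITM2, its close relative, had 132, 146 and 116. TRIM22, a RING-domain antiviral protein, came next with 57.4, 25.1 and 65.7, the low value being that of replicate 2. These 3 genes kept their order in all 3 control libraries without overlap, whereas 33 of the 38 neighbouring pairs in the order of all 39 genes overlapped. IFITM2 and IFITM3 accounted for 44.3% to 83.4% of the FPKM of all 39 genes in a library. Because the IFITM sequences are much alike, the split of reads among IFITM1, IFITM2 and IFITM3 is uncertain.

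Below these, IFI6, a small mitochondrial protein, had 28.8 ± 5.3 FPKM (SD, n = 3) in control total RNA. ISG15 had 18.7 ± 11.2 and PARP9, which pairs with the ubiquitin ligase DTX3L, had 16.9 ± 3.46, while DTX3L itself had 12.2 ± 2.36. Among the transcription factors, STAT2 had 15.9 ± 3.2, IRF1 12.8 ± 7.06 and IRF9 11.8 ± 1.72. The RNA sensors RIGI and IFIH1 had 10 ± 0.666 and 7.48 ± 0.127, and the 2-5A synthetases OAS3 and OAS1 had 9.27 ± 4.1 and 7.37 ± 3.51. IFIT5 had 13.2 ± 1.43, the highest level of the IFIT family, and IFIT1 had 4.65 ± 1.63. Of the 31 genes above the minimum, 10 lay above the median of all genes that passed it, 12.7 FPKM in control total RNA.

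The 8 genes at or under the minimum are not in the tests that follow. Their means over all libraries were 0.997 FPKM for IFIT2, 0.532 for CMPK2, 0.501 for MX2, 0.367 for OAS2, 0.152 for XAF1, 0.125 for RSAD2, 0.0272 for HERC5 and 0.018 for IRF7. IFIT2 lay just outside the minimum and MX1, a dynamin-like GTPase, just inside it with 1.05. IRF7, the factor that amplifies interferon production, was listed at 0 in 12 of the 27 libraries, all 9 of the cytoplasmic/ER fraction among them, and HERC5, the ligase that attaches ISG15, in 2.

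**Figure D1:**
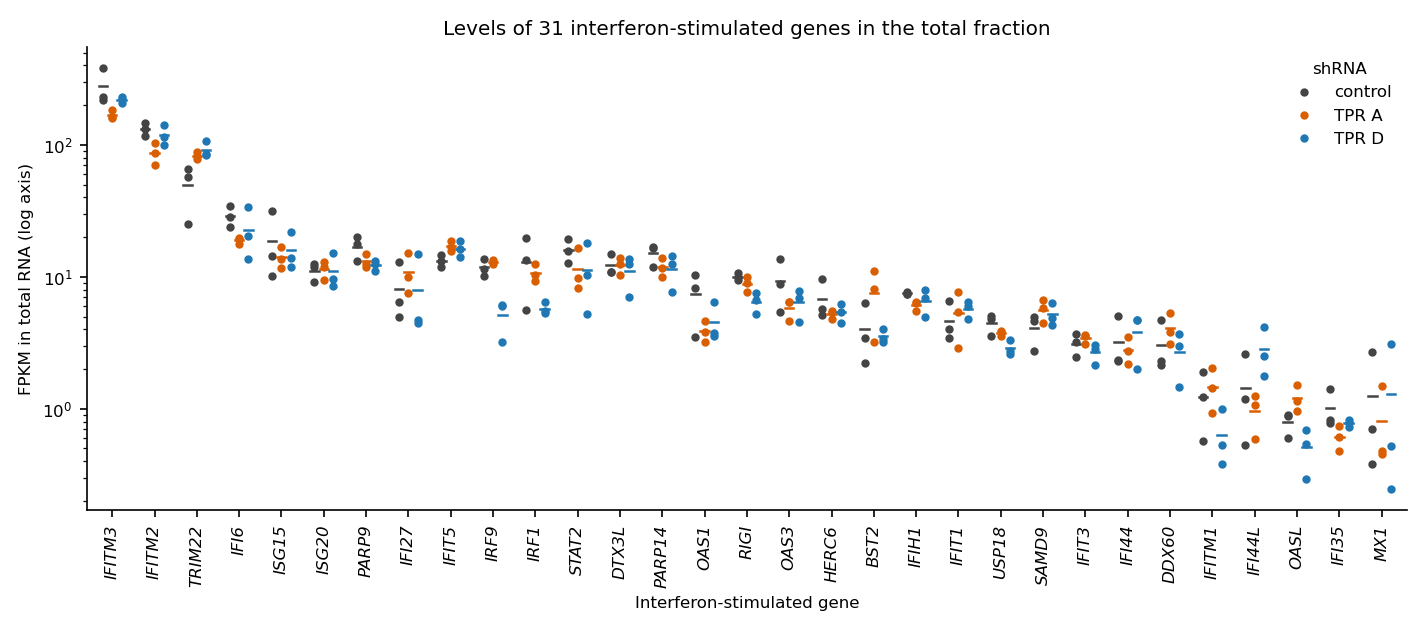
FPKM in total RNA (log axis) of the 31 interferon-stimulated genes above the minimum, ordered by their mean over all 27 libraries, with 1 point per replicate and a bar for the mean of 3. IFITM3 and IFITM2 stand above the others, and all 6 TPR-depleted points of TRIM22 lie above its 3 controls.

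The interferons were almost absent. Of 9 interferon genes none reached the minimum, IFNA1 was at 0 in all 27 libraries and IFNB1 in 26, and the highest single value was 0.279 FPKM, for IFNL3, a lambda interferon. The receptors and the kinases were present throughout. IFNAR1 ranged from 12.9 to 38.1 FPKM, IFNAR2 from 8.41 to 23, JAK1 from 16.9 to 42.1 and TYK2 from 51.4 to 120.

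With TPR depleted, 0 of 31 members passed an adjusted p of 0.05 in the total fraction (limma, Benjamini-Hochberg over 14611 genes) with either shRNA or with both together. Among all genes 0.821% passed with TPR A, 0.753% with TPR D and 1.14% with both. At an unadjusted p under 0.05 there were 2 members for both shRNAs together, TRIM22 and USP18, or 6.45%, compared with 16.1% of all genes. The median log2 change of the members was -0.18 and that of all genes -0.01, with 12 members above and 19 below 0. Per replicate the median of the members ran from -0.15 to -0.10 with TPR A, from -0.30 to -0.07 with TPR D and from -0.12 to 0.09 with the control shRNA, so the depleted replicates overlapped the controls. In these bulk samples fewer cells that express a gene and less RNA per cell cannot be told apart.

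By role, the 3 transcription factors STAT2, IRF1 and IRF9 had log2 changes of -0.51, -0.46 and -0.48 for both shRNAs together. For IRF9 the shRNAs went opposite ways, with -1.16 for TPR D and 0.21 for TPR A. The 3 IFITM genes and the PARP9, DTX3L and PARP14 group were also all below 0, with medians of -0.32 and -0.31. TRIM22, SAMD9, BST2 and ISG20 were all above 0, with a median of 0.47, or 0.29 without control replicate 2. None of these genes passed the adjusted threshold. Without control replicate 2 the changes were -0.54 for STAT2, -0.10 for IRF1, -0.40 for IRF9 and -0.19 for IFITM3 (-0.41 with it), and the IFITM and PARP9 groups had medians of -0.27 and -0.23. The signs given so far for both shRNAs together held with the FPKM as deposited and without control replicate 2. The 3 tested IFIT genes, IFIT1, IFIT3 and IFIT5, were also above 0. For IFIT3 the shRNAs differed, with a mean of 2.67 FPKM for TPR D, 3.42 for TPR A and 3.11 for the control. ISG15, HERC6 and USP18 were below 0, and control replicate 2 was the highest control for each of them. The 95% intervals of 15 of the 31 members lay within a 2-fold change in either direction, and those of the remaining 16 reached past it.

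The IFITM genes and the other abundant members did not pass either. IFITM3 had 161, 185 and 162 FPKM with TPR A and 223, 208 and 230 with TPR D, and IFITM2 had 103, 86.6 and 69.8 with TPR A and 141, 115 and 99.2 with TPR D. Against the control values given above, TPR A lay below all 3 for both genes and TPR D overlapped them. The log2 changes with TPR A were -0.61 and -0.55 (limma adjusted p = 0.412 and 0.354).

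IFIT1 had 5.32 ± 2.37 FPKM (SD, n = 3) with TPR A and 5.73 ± 0.876 with TPR D. IFIT3, which binds IFIT1, had 3.11 ± 0.599, 3.42 ± 0.285 and 2.67 ± 0.478 with control, TPR A and TPR D. OAS3 had 5.83 ± 1.07 and 6.39 ± 1.68, RIGI 8.87 ± 1.2 and 6.46 ± 1.17, and IFIH1 6.1 ± 0.544 and 6.61 ± 1.51, again in that order. For each of these genes the difference from the control mean missed the adjusted threshold. STAT2 had 11.5 ± 4.44 and 11.2 ± 6.41, and IRF1, a factor that also acts without interferon, 10.7 ± 1.63 and 5.74 ± 0.563. HERC6, a HECT-domain protein, had 6.81 ± 2.38 with the control shRNA, 5.23 ± 0.398 with TPR A and 5.37 ± 0.863 with TPR D. ISG20 had means within a narrow range, 11.1 ± 1.79, 11.4 ± 1.8 and 11.1 ± 3.59, whereas MX1 spread widely within each group, with 1.25 ± 1.24, 0.804 ± 0.589 and 1.29 ± 1.58.

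TRIM22 came nearest the threshold in total RNA for both shRNAs together. Its gene lies on the plus strand of chromosome 11 from 5710840 to 5758319 (GRCh37, GENCODE 44) and overlaps TRIM5 on the other strand. With the control shRNA it had 57.4, 25.1 and 65.7 FPKM, with TPR A 88.9, 82.5 and 77.7 and with TPR D 107, 85.4 and 83.9. All 6 depleted libraries were above all 3 controls. Both shRNAs together gave a log2 change of 1.00 (standard error 0.29, limma adjusted p = 0.0881). The exact permutation p was 0.0238 (2-sided), the smallest that 6 against 3 replicates allow. It is not adjusted over genes and adds little to the lack of overlap, which 6.92% of all genes had in total RNA. TRIM22 was also picked by its p in these same data. Taken singly, TPR A gave 0.92 and TPR D 1.08 (limma adjusted p = 0.217 and 0.118). The TRIM22 change passed in 2 of 19 alternative fits, whose limma adjusted p ran from 0.0347 to 0.582: the fit that added replicate number as a block, which gave 0.0347, and the fit without control replicate 3. Without control replicate 2, whose total library was the lowest, the TRIM22 change was 0.54 and the limma adjusted p 0.582.

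In the nuclear fraction TRIM22 had 36.2, 71.2 and 52.2 FPKM with the control shRNA, 64.9, 63.3 and 82.6 with TPR A and 45.8, 41.3 and 53.8 with TPR D. Both shRNAs overlapped the controls, although TPR A lay above TPR D. In the cytoplasmic/ER fraction control libraries had 15, 13.9 and 19, TPR A libraries 26.8, 18 and 35.3 and TPR D libraries 20.7, 13.5 and 29, and both again overlapped the controls. The log2 changes for both together were 0.16 in the nuclear and 0.55 in the cytoplasmic/ER fraction (limma adjusted p = 0.86 and 0.484).

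After scaling, depleted and control total libraries did not overlap for 2 of 31 members (6.45%, and 6.92% of all genes), TRIM22 and IFIT5, both higher with the TPR shRNAs. IFIT5 had 13.1, 14.7 and 11.9 FPKM with the control shRNA, 18.6, 16.7 and 15.7 with TPR A and 18.6, 16.2 and 14.2 with TPR D. In these values as deposited the lowest TPR D library was below the highest control, and the log2 change was 0.40 (limma adjusted p = 0.372).

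USP18, the ISG15 protease that also dampens receptor signalling, had 4.8, 5.08 and 3.55 FPKM in control, 3.81, 3.9 and 3.57 in TPR A and 3.31, 2.62 and 2.75 in TPR D total libraries. All TPR D libraries lay below all others. The USP18 log2 change with TPR D came to -0.53 (standard error 0.19, limma adjusted p = 0.194) and -0.35 for both together (limma adjusted p = 0.295). For both together the limma adjusted p was 0.749 without the total and nuclear libraries labelled control replicate 2.

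In the nuclear fraction 0 of 31 members passed the adjusted threshold, while 0.903% (TPR A), 0.479% (TPR D) and 0.808% (both together) of all genes did. At an unadjusted p under 0.05 there were 4 for both together (12.9%, and 11.8% of all genes), ISG15, BST2, IFI35 and PARP9. The median log2 change was 0.16 for the members and -0.02 for all genes, and no member had depleted libraries clear of the controls (6.21% of all genes had). Without control replicate 2 the median of the members was -0.15, with 10 above 0 in place of 19, so the direction rested on that replicate.

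ISG15 had 22.1, 9.88 and 27.2 FPKM in control, 20.2, 32.8 and 37 in TPR A and 24, 31 and 33.3 in TPR D nuclear libraries. The lowest value was that of the library labelled control replicate 2, and the other controls lay among the depleted libraries. The log2 change of 0.69 (limma adjusted p = 0.416) was 0.26 without control replicate 2 (limma adjusted p = 0.886).

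BST2, or tetherin, holds budding virions at the cell surface. It had 10.3, 1.67 and 3.16 FPKM in control, 16.2, 11.9 and 6.76 in TPR A and 4.72, 6.76 and 4.81 in TPR D nuclear libraries, and the controls spread more widely than either depleted group relative to its level. Its log2 change for both together was 0.99, and 0.43 without control replicate 2 (limma adjusted p = 0.42 and 0.893). Without control replicate 1, the highest control, BST2 passed the adjusted threshold for TPR A. IFI35 was low, with 0.882, 0.348 and 1.17 FPKM in control, 1.27, 1.49 and 1.59 in TPR A and 0.926, 1.17 and 1.75 in TPR D nuclear libraries. Its lowest value was again in control replicate 2, and the change of 0.81 was 0.38 without it (limma adjusted p = 0.341 and 0.846).

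PARP9 had 24.3, 16.8 and 21.5 FPKM in control, 14.5, 16.2 and 19.4 in TPR A and 12.2, 14.6 and 19.2 in TPR D nuclear libraries. Both depleted groups reached the lowest control, that of replicate 2, and stayed below the other 2. The log2 change was -0.38 for both together (standard error 0.18, limma adjusted p = 0.415) and -0.51 without control replicate 2 (limma adjusted p = 0.431). PARP9 and DTX3L overlap on opposite strands, and the library kit kept strand.

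In the cytoplasmic/ER fraction 0 of 31 members passed the adjusted threshold, while 0.623% (TPR A), 0.575% (TPR D) and 0.643% (both together) of all genes did. At an unadjusted p under 0.05 there were 0 members for both together and 11.4% of all genes. The median log2 change was -0.01 for the members and -0.02 for all genes, and the 95% intervals of 19 members lay within a 2-fold change. Without control replicate 2 the median was -0.18. Depleted and control libraries were clear of each other for 1 member (3.23%, and 5.39% of all genes), IFI6. It had 35.9, 35 and 42.3 FPKM with the control shRNA, 25.2, 26.2 and 27.4 with TPR A and 25.5, 28.2 and 29.2 with TPR D. The 6 depleted libraries lay close together below the controls, with a log2 change of -0.45 (limma adjusted p = 0.577).

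**Figure D2:**
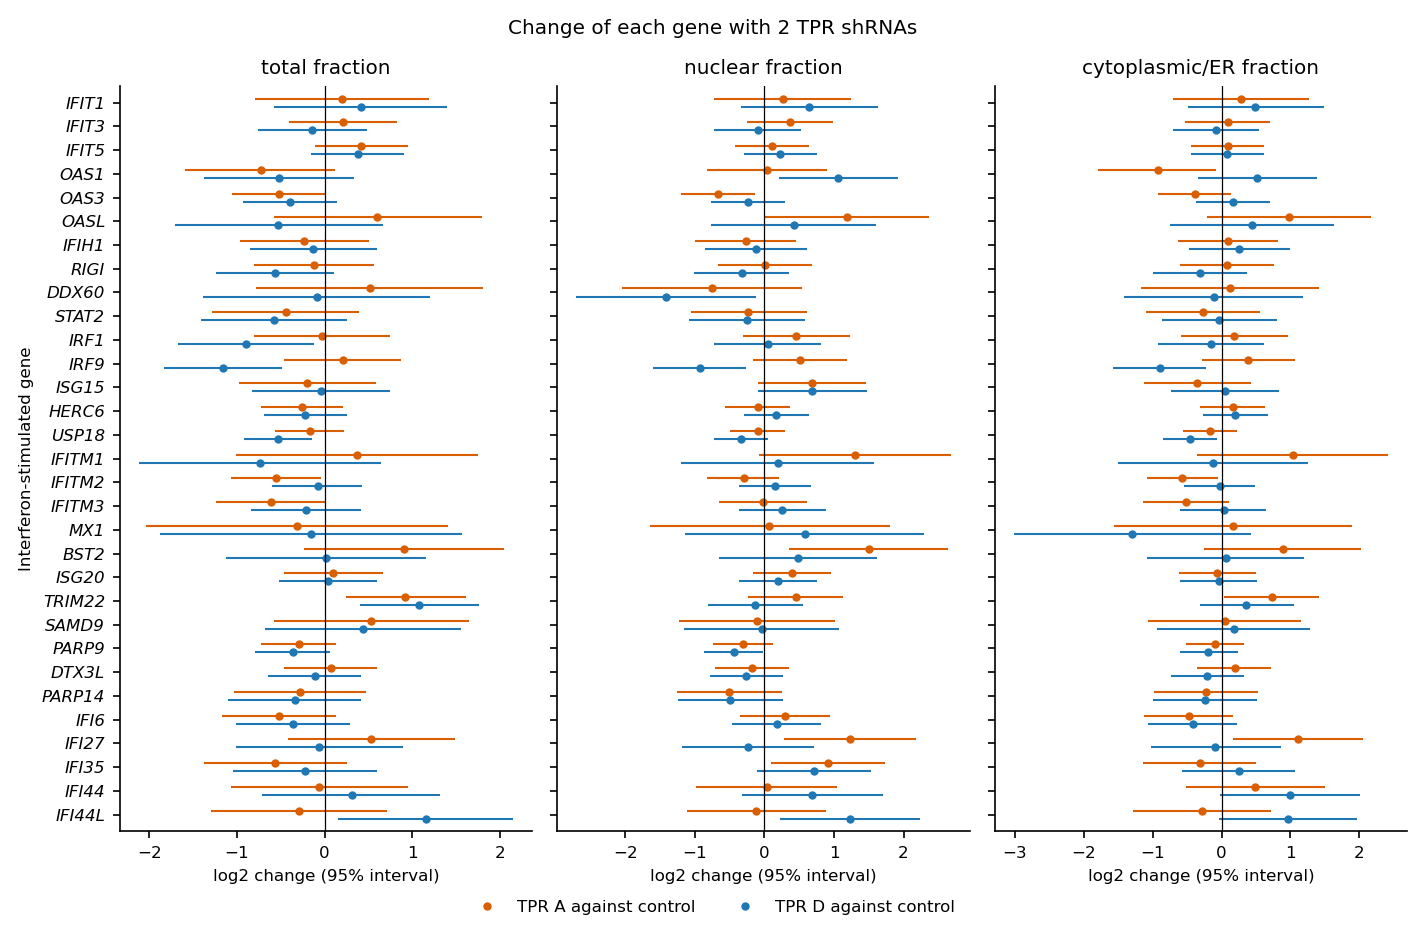
Log2 change of each of the 31 genes against control for TPR A and TPR D in the total, nuclear and cytoplasmic/ER fraction, with the 95% intervals of the limma fit as bars. TRIM22 lies above 0 with both shRNAs in total RNA (0.92 and 1.08), and IRF9 lies below 0 with TPR D in all 3 fractions (-1.16, -0.93 and -0.90) and above it with TPR A (0.21, 0.51 and 0.39).

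IRF9, the DNA-binding subunit of ISGF3, was where the TPR shRNAs lay furthest apart by p. It is encoded on the plus strand of chromosome 14 from 24630443 to 24637252 (GRCh37, GENCODE 44), and a readthrough gene on the same strand (ENSG00000259529) overlaps it and had 0.329 to 2.54 FPKM. In total RNA IRF9 had 10.2, 13.6 and 11.5 FPKM with the control shRNA, 12.6, 13.3 and 13 with TPR A and 3.18, 6.05 and 6.13 with TPR D. The TPR D libraries were below all others, and control and TPR A lay close together.

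In the nuclear fraction IRF9 had 19.9, 9.91 and 22.4 FPKM in control, 16.2, 26.1 and 30.1 in TPR A and 9.44, 5.99 and 10.9 in TPR D libraries, so that TPR D overlapped control replicate 2 and no TPR A library. In the cytoplasmic/ER fraction control libraries had 16.8, 9.91 and 15.4, TPR A libraries 12.3, 21.8 and 20.2 and TPR D libraries 8.34, 5.43 and 8.12. There TPR D was below every control and every TPR A library.

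Against the control shRNA, IRF9 in TPR D cells had a log2 change of -1.16 in total (standard error 0.32, limma adjusted p = 0.0916), -0.93 in nuclear (limma adjusted p = 0.284) and -0.90 in cytoplasmic/ER RNA (limma adjusted p = 0.28). The nuclear limma adjusted p was 0.0997 without control replicate 2. TPR A minus TPR D was 1.37, 1.44 and 1.29 (limma adjusted p = 0.0719, 0.0519 and 0.074), and none passed the threshold. The exact permutation p of this IRF9 difference was 0.1 in each fraction, the smallest that 3 against 3 replicates allow. When replicate number was added as a block its limma adjusted p was 0.0413 in total, 0.0275 in nuclear and 0.0452 in cytoplasmic/ER RNA, and without control replicate 2, which changes the estimated spread and not the IRF9 difference, it was 0.031, 0.0217 and 0.0317. Over 19 alternative fits it ran from 0.031 to 0.756 in total, from 0.0217 to 0.338 in nuclear and from 0.0317 to 0.35 in cytoplasmic/ER RNA, with 3, 8 and 3 past the threshold. The 3 fractions of a replicate share a label number and are not independent evidence.

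**Figure D3:**
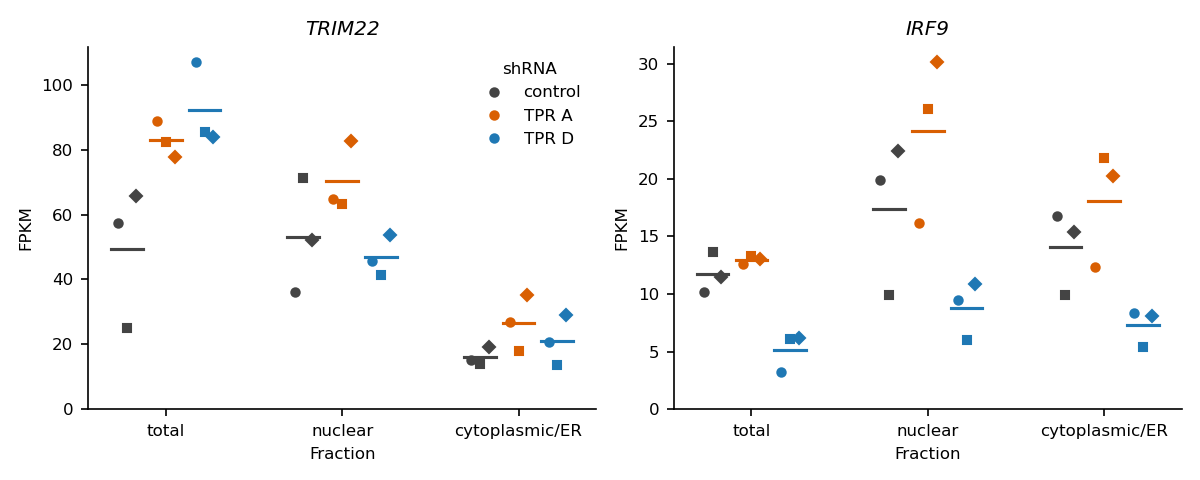
FPKM of TRIM22 and IRF9 in each library by fraction and shRNA (circles are replicate 1, squares replicate 2, diamonds replicate 3, and bars the mean of 3). TRIM22 is higher with both TPR shRNAs in total RNA, where the lowest control is replicate 2, and IRF9 is lower with TPR D than with TPR A in every fraction.

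Between the TPR shRNAs 0 of 31 members passed the adjusted threshold in total, nuclear or cytoplasmic/ER RNA, where 0.281%, 0.315% and 0.637% of all genes did. Libraries of TPR A and TPR D were clear of each other for 8 members in total (25.8%, and 15.2% of all genes), 11 in nuclear (35.5%, and 16.8%) and 6 in cytoplasmic/ER RNA (19.4%, and 11.1%). They did not go 1 way: in the nuclear fraction 6 were higher and 5 lower with TPR A. IRF9 was higher with TPR A in all 3 fractions, and IFI44L lower.

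IFI44L, named for its response to interferon, had 0.966 ± 0.336 FPKM (SD, n = 3) with TPR A and 2.81 ± 1.24 with TPR D in total RNA, 0.861 ± 0.277 and 2.32 ± 0.464 in nuclear and 0.914 ± 0.107 and 2.45 ± 1.04 in cytoplasmic/ER RNA. OAS1 had 4.94 ± 1.27 with TPR A, 14 ± 4.34 with TPR D and 10.2 ± 4.2 with the control shRNA in the cytoplasmic/ER fraction. IFI27, a small membrane protein, had 26 ± 10.4, 8.91 ± 1.32 and 11.3 ± 5.08 in the nuclear fraction. For OAS1 the control mean lay between those of the TPR shRNAs, and for IFI27 close to TPR D. TPR A minus TPR D missed the adjusted threshold for OAS1 in cytoplasmic/ER (-1.46, limma adjusted p = 0.144), for IFI27 in nuclear (1.47, limma adjusted p = 0.218) and for IFI44L in total RNA (-1.44, limma adjusted p = 0.309).

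Other genes of the interferon pathway were taken from a list of 86, of which 84 had a row and 67 were above the minimum. In total RNA 0 of the 67 passed the adjusted threshold for both shRNAs together (1.14% of all genes) or TPR D (0.753%), and 1 fell with TPR A (0.821%), IL10RB. At an unadjusted p under 0.05 there were 15 for both together (22.4%, and 16.1% of all genes), 12 of them lower. Over all 14611 genes, 1196 were lower at that limma p. These counts are given only with the libraries labelled control replicate 2 kept. In the nuclear fraction 0 passed for both together, and likewise in the cytoplasmic/ER fraction, where IL10RB again fell with TPR A. The median log2 change over the 67 was -0.20 in total, -0.04 in nuclear and -0.11 in cytoplasmic/ER RNA.

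The 15 genes of antigen presentation, which interferon also induces, had the median furthest from 0 of that list's groups in total RNA. None passed the adjusted threshold for both shRNAs together in any fraction. In total RNA all 15 were below 0, with a median of -0.46 (-0.28 without control replicate 2, still all 15), and in cytoplasmic/ER RNA again all 15, with -0.38 (-0.44, and 14 of 15). In nuclear RNA 13 were above 0 with a median of 0.15, but without control replicate 2 only 2 were, with -0.23. B2M, the light chain of MHC class I, had 1365, 1012 and 1053 FPKM in control, 1142, 1105 and 927 in TPR A and 1407, 893 and 802 in TPR D total libraries, which overlapped (-0.07, limma adjusted p = 0.902).

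The most abundant genes of the other groups had log2 changes in total RNA of -0.17 for the kinase TYK2, -0.22 for IRF3, the factor downstream of RNA and DNA sensing, and -0.19 for ADAR, which edits double-stranded RNA. Their limma adjusted p were 0.693, 0.654 and 0.568.

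IL10RB is the chain that the lambda interferon receptor shares with the receptor for IL-10. In total RNA it had 29.9, 37.8 and 24.8 FPKM with the control shRNA, 16, 14.9 and 14.9 with TPR A and 31.1, 23.4 and 25.1 with TPR D. TPR A was below all others, and TPR D overlapped the controls. The IL10RB log2 change with TPR A was -0.92 in total (standard error 0.19, limma adjusted p = 0.0239) and -1.06 in cytoplasmic/ER RNA (limma adjusted p = 0.00564). TPR A minus TPR D was -0.86 in nuclear and -0.95 in cytoplasmic/ER RNA (limma adjusted p = 0.0406 and 0.0197).

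SP110, a nuclear body protein, had 15.5, 7.75 and 27.1 FPKM in control, 25.6, 32 and 42.7 in TPR A and 11.6, 8.73 and 10.6 in TPR D nuclear libraries. TPR A was above TPR D throughout, and the controls overlapped both. SP110 was higher with TPR A than with TPR D by 1.66 on the log2 scale in nuclear RNA (standard error 0.33, limma adjusted p = 0.0215) and 2.83-fold in cytoplasmic/ER RNA (limma adjusted p = 0.0321).

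Where the RNAs lay in the cell was compared next. In control cells 17 of 31 members (54.8%) differed between the nuclear and the cytoplasmic/ER fraction at an adjusted p under 0.05 (limma), and 39.4% of all genes did. Of these, 12 were higher in the nuclear fraction (38.7%, and 20.2% of all genes) and 5 in the cytoplasmic/ER fraction (16.1%, and 19.2%). Values are scaled within each library, so they compare relative levels and not shares of molecules. The median difference, nuclear minus cytoplasmic/ER on the log2 scale, was 0.13 for the members and -0.01 for all genes.

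The 3 RNA sensors stood on the nuclear side. DDX60, a helicase tied to the RIG-I pathway, had 4.5, 3.88 and 5.37 FPKM in control nuclear and 0.468, 0.316 and 1.04 in control cytoplasmic/ER libraries, far apart in every replicate. Its log2 difference was 2.87 (standard error 0.63, limma adjusted p = 0.00107). IFIH1 had 9.35, 6.13 and 13 FPKM in nuclear compared with 2.56, 1.55 and 3.79 in cytoplasmic/ER libraries (1.86, limma adjusted p = 0.000318), and RIGI 14.7, 8.02 and 18.9 compared with 4.45, 2.77 and 6.05 (1.65, limma adjusted p = 0.000508). Neither overlapped between the fractions.

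SAMD9, which restricts poxviruses, had 4.42, 4.85 and 5.31 FPKM in nuclear and 0.601, 0.595 and 1.27 in cytoplasmic/ER libraries (2.53, limma adjusted p = 0.000887). The other genes higher in the nuclear fraction were PARP14 (1.81), TRIM22 (1.72), IFI44 (1.25), STAT2 (1.10), PARP9 (1.03), IFIT5 (0.86), HERC6 (0.84) and IFIT3 (0.78). Their limma adjusted p ran from 0.00036 for TRIM22 to 0.0459 for IFI44. They were not equally stable: PARP14, TRIM22 and PARP9 passed in all 21 alternative fits and HERC6 in 20 of 21, compared with 17 of 21 for IFIT5, 16 of 21 for STAT2, 10 of 20 for IFIT3 and 6 of 20 for IFI44.

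On the cytoplasmic/ER side were IFITM2, ISG15, USP18, ISG20 and IFI35. IFITM2 had 349, 253 and 266 FPKM in cytoplasmic/ER and 187, 106 and 165 in nuclear libraries, which did not overlap (-0.91, limma adjusted p = 0.00594). ISG15 had 34.2, 36.7 and 46.2 in cytoplasmic/ER compared with 22.1, 9.88 and 27.2 in nuclear libraries (-1.05, limma adjusted p = 0.0303), and the lowest nuclear library was that labelled control replicate 2. USP18 (-0.71), the exonuclease ISG20 (-0.69) and IFI35 (-1.02) had limma adjusted p of 0.00524, 0.0453 and 0.0431. With any 1 of the 3 control replicates left out, 11 of the 31 passed. Without replicate 2, USP18 was the 1 gene on the cytoplasmic/ER side that passed, and ISG15, IFITM2, ISG20 and IFI35 did not. On the nuclear side IFIT5, STAT2 and IFI44 were lost there, and the 11 that passed were not all among the 17 that passed with every replicate. When replicate number was added as a block 13 passed: ISG15, IFITM2, ISG20, IFI35 and IFI44 did not (limma adjusted p = 0.206, 0.0842, 0.166, 0.309 and 0.135), and IFIT1 did (0.0409).

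In depleted cells 11 members passed between the fractions with TPR A (35.5%, and 28.4% of all genes) and 11 with TPR D (35.5%, and 31.7%). With each of the 3 shRNAs 8 passed: IFIH1, RIGI, IFIT5, TRIM22, SAMD9, PARP9 and PARP14, higher in the nuclear fraction, and USP18, higher in the cytoplasmic/ER fraction.

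**Figure D4:**
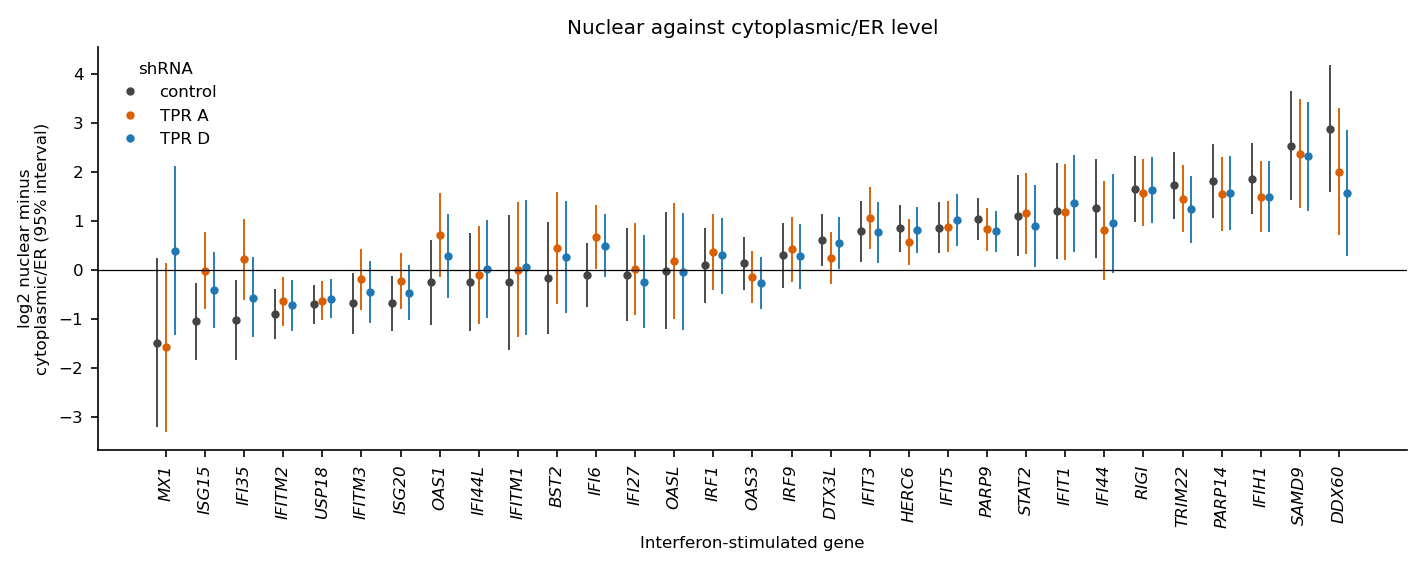
Difference between the nuclear and the cytoplasmic/ER level of each gene on the log2 scale with the control, TPR A and TPR D shRNA, with 95% intervals as bars, ordered by the control value. DDX60, SAMD9, IFIH1, PARP14 and TRIM22 are on the nuclear side with every shRNA.

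How TPR depletion changed this difference is the comparison closest to the study's question. With either shRNA and with both together 0 of 31 members passed the adjusted threshold, and 0% of all 14611 genes did (limma). At an unadjusted p under 0.05 there was 1 member with TPR A (3.23%, and 1.47% of all genes), IFI35, and there were 0 with TPR D (0.821% of all genes) and 0 for both together (1.72%). The median log2 change was 0.09 for the members and 0.00 for all genes, 18 of 31 were above 0 (-0.08 and 12 without control replicate 2), and no member had depleted replicates clear of the controls (4.6% of all genes had). The standard error had a median of 0.45, and the intervals of 10 members lay within a 2-fold change. These come from the fit that does not pair the 2 fractions of a culture, and with the culture as a block 0 members passed as well. Among the 15 genes of antigen presentation 14 were above 0, with a median of 0.60, or 13 with a median of 0.23 without control replicate 2, and none passed.

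IFI35 had log2 differences of -0.60, -1.60 and -0.88 in control, 0.54, -0.21 and 0.29 in TPR A and -0.13, -1.15 and -0.41 in TPR D replicates. TPR A was above all controls and TPR D overlapped them, and the change with TPR A was 1.23 (standard error 0.56, limma adjusted p = 0.987). ISG15 had -0.60, -1.84 and -0.73 in control, -0.01, -0.07 and 0.03 in TPR A and -0.15, -0.73 and -0.35 in TPR D replicates. TPR A again lay above the controls, of which replicate 2 was lowest, and the ISG15 change for both together was 0.84, or 0.45 without control replicate 2 (limma adjusted p = 0.999 and 1). DDX60 had 3.04, 3.29 and 2.29 in control, 1.24, 2.93 and 1.82 in TPR A and 1.02, 2.35 and 1.33 in TPR D replicates, both depleted groups overlapping the controls, and a change of -1.09 (standard error 0.77, limma adjusted p = 0.999).

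With all libraries kept, the change across the members was lower for genes with long pre-mRNAs, as it was across all genes. Spearman's rho across genes, which share their libraries and are not independent, was -0.473 between pre-mRNA length and the change for both shRNAs over 31 members, and -0.433 over 14016 annotated genes. For TPR A it came to -0.585 and for TPR D to -0.438 among the members, and -0.427 and -0.383 among all genes. Without control replicate 2 the members had -0.409 (TPR A), -0.27 (TPR D) and -0.373 (both together), and without only its total and nuclear libraries they had -0.39, -0.167 and -0.275. For all genes rho is given only with these libraries kept. The control difference between fractions, which is subtracted in the change, itself rose with length. Its rho was 0.412 among the members and 0.336 among all genes. Lengths were medians over the transcripts of a gene and ran from 1185 nt for IFITM3 to 70390 nt for RIGI.

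The 21 members under the median length of all genes, 20512 nt, had a median change of 0.13, with 15 above 0, and the 10 over it had -0.19, with 3 above 0. By exons, IFIT1, IFIT3, IFIT5, IRF1, ISG15, IFITM1, IFITM2, IFITM3 and SAMD9, the 9 members with 3 or fewer, had a median of 0.22, with 8 above 0. The 22 members with more exons had a median of -0.03. Without control replicate 2 the shorter genes had a median of -0.02 and the longer ones -0.16, and the genes with few exons had 0.06, with 5 above 0. These are the same genes as in the length groups in part, and length and exon number were not taken apart.

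**Figure D5:**
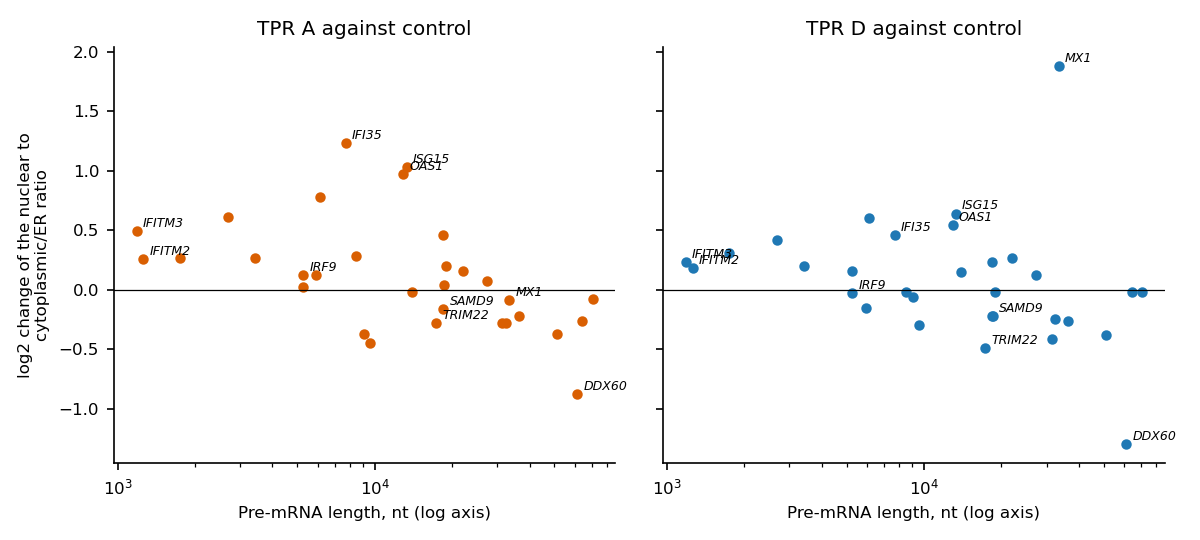
Log2 change of the nuclear to cytoplasmic/ER difference against pre-mRNA length (log axis) for TPR A and TPR D, with 1 point per gene and 10 genes named. Most points fall from left to right (rho of -0.585 and -0.438, n = 31), DDX60 is lowest with both shRNAs, and MX1, a gene near the minimum, is highest with TPR D.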

How the data were processed

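RNA of 27 libraries was compared (3 shRNAs, 3 fractions, 3 replicates). As the study's methods and the labels give it, the authors made directional poly(A)+ libraries, quantified them with Salmon on Gencode 19 transcripts (hg19), and combined transcripts into genes with tximport. The deposited values are FPKM of 34464 genes. The authors' fold changes, made with DESeq2, are not used here, and tool versions are not given in the sources used here.

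For the present work each library was scaled by a median-of-ratios factor (0.945 to 1.05). Genes with a mean above 1 FPKM outside the mitochondrial genome were kept. Then log2(FPKM + 0.1) was fitted with limma 3.58.1 (R 4.3.3, trend, 9 groups, 27 libraries, Benjamini-Hochberg, threshold 0.05). Fold changes are on this scale and are understated for low genes. In simulated data the fit recovered 190 of 200 changed genes in total RNA, with 8 false calls. That simulation had independent noise and larger changes than those of the members against control, so it does not show how smaller changes would be found. FPKM printed per library are as deposited, and counts of groups that do not overlap use scaled values. Exact permutation tests used scipy 1.17.1. Depth was estimated from the steps of low values in 7317 genes with 1 transcript (of their values worth 1 to 5 reads, 84.9% came within 0.1 of a whole number). Lengths and exons came from GENCODE 44 on GRCh37.

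Values by library or by group, for some or all groups, were given for members chosen by rule. These were the 2 members of highest mean FPKM in each role group and those with an unadjusted p under 0.05 for both shRNAs. Members past the adjusted threshold in any contrast were added. Of these, PARP14 and IFI44, which passed between fractions in control cells, are given by log2 difference only. IFI44L was singled out, and IFIT5, IFI6, OAS1 and IFI27 given further values, after their values were seen. The members and lists were chosen with earlier results of these data known. Values of some listed genes are not reported here. Deviations from group means correlated between samples of equal replicate number, over 0.1 in every pair, only for control and TPR A in total (0.137 to 0.324) and for TPR A and TPR D in nuclear (0.131 to 0.265) and cytoplasmic/ER RNA (0.397 to 0.596), so the block is given beside the calls of named members that it changes. Alternatives were the FPKM as deposited, pseudocounts of 1 and 0.01, no minimum or a minimum of 5 FPKM, each of the 9 cultures (an shRNA and replicate number) left out, replicate and culture blocks, no trend, the control with 1 shRNA at a time, and replicate 1 apart from replicates 2 and 3, whose sample descriptions follow another style. Leaving out the total and nuclear libraries labelled control replicate 2 was added after seeing the data.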

Additional observations from a re-analysis of the deposited data

How the results depend on the processing

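In every alternative run, no member passed for the change of the nuclear to cytoplasmic/ER difference. Counts that moved did so by 1 gene or in the control comparison: with the replicate block 1 member (TRIM22) passed in total RNA for both shRNAs (0 to 1 when 1 culture was left out), and in the nuclear fraction 0 to 1 passed with TPR A (BST2, without control replicate 1). Between TPR A and TPR D 1 member, IRF9, passed in each fraction with the replicate block and without the 2 libraries labelled control replicate 2, and in nuclear RNA also with a pseudocount of 1, a minimum of 5 FPKM, the culture as a block and no trend (0 to 1 in each fraction when 1 culture was left out). The block raised the calls over all genes from 166 to 385 in total RNA. Of the 17 members that differed between fractions in control cells, the count was 8 within replicates 2 and 3 and 11 to 16 with 1 culture left out. The median change of members in total RNA was -0.02 with no minimum, -0.31 with a minimum of 5 FPKM and -0.37 within replicate 1 for both shRNAs, 0.07 with no minimum for TPR A, and -0.45 within replicate 1 for TPR D (-0.31 to -0.15 with 1 culture left out). Within replicate 1 it was -0.36, -0.34 and -0.27 in nuclear and -0.39, -0.20 and -0.41 in cytoplasmic/ER RNA for both, TPR A and TPR D. In cytoplasmic/ER RNA it was 0.18 for TPR D within replicates 2 and 3, and -0.17 to 0.14 for TPR A with 1 culture left out. For the nuclear to cytoplasmic/ER difference it was -0.20, -0.16 and -0.24 without the 2 libraries (both, TPR A, TPR D), and with 1 culture left out -0.08 to 0.18 for both and -0.06 to 0.16 for TPR D. The change of TPR mRNA was -2.36 within replicates 2 and 3 (limma adjusted p = 0.203), -2.57 for TPR A alone (0.258) and -2.16 for TPR D alone (0.276). The TPR D value within replicate 1 was -3.02. BST2 in nuclear RNA turned to -0.20 within replicate 1. The cause of these shifts was not tested. Within replicate 1 each group has 1 culture and gives values with no test. A further 312 counts stayed within 1.5 times the main count, and 226 medians moved by less than 1 SD of the replicates. At 32.5 to 89.9 reads for 1 FPKM on 1 kb of transcript, depth limits mainly the genes far below 1 FPKM.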

Other observations

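Genes beside IRF9 on chromosome 14 were looked at because IRF9 differed between the shRNAs, a choice made after seeing the values. In TPR D cells IRF9 differed from control by -1.16, -0.93 and -0.90 on the log2 scale in total, nuclear and cytoplasmic/ER RNA, RNF31, the gene next to it that encodes a subunit of the linear ubiquitin ligase, by -0.28, 0.37 and 0.02, and PSME2, a proteasome activator subunit induced by interferon, by -0.68, -0.13 and -0.47. In TPR A cells the same differences were 0.21, 0.51 and 0.39 for IRF9, 0.08, 0.72 and 0.15 for RNF31, and -0.49, 0.14 and -0.38 for PSME2. IPO4, an importin on the far side of IRF9, had -0.82, 0.04 and 0.07 in TPR D and -0.93, -0.01 and -0.34 in TPR A cells. Control total libraries spread widely for IPO4 (33.3 to 104 FPKM) and PSME2 (132 to 274 FPKM). No test of the neighbours of IRF9 is given here.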
